A study of Mus musculus with 28 samples.

Results

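The comparison described here is that of skeletal muscle taken from mice 4 h after IL-1b, a cytokine of inflammation, or vehicle was injected into the cerebral ventricles, the fluid-filled spaces of the brain. Total RNA was labelled and read on whole-transcript Affymetrix arrays. The comparison was chosen by treatment and time alone and covers 10 of the 28 arrays of the study, 5 from IL-1b mice and 5 from vehicle mice. Replicates 4, 13, 15, 18 and 22 received IL-1b and replicates 1, 3, 5, 7 and 17 received vehicle, as read from the sample titles. In 1 title the replicate number and the hour run together, and it was read as IL-1b replicate 18 at 4 h by the pattern of the others. The remaining arrays come from mice given IL-1b or vehicle and sampled after 2 h (5 of each) or 8 h (3 with IL-1b, 5 with vehicle). All mice had the same route of injection, and the labels used here give no strain, age, sex, dose or name of the muscle. Nor do they say whether arrays stand for separate mice, and p-values therefore reflect only how far these samples spread.

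Skeletal muscle is the body's main store of amino acids, which it releases during fasting, infection and other illness. Circulating glucocorticoids, released when the brain activates the adrenal cortex, act on muscle through a nuclear receptor that switches on genes of stress, of reduced growth signalling and of protein breakdown. FoxO transcription factors, held out of the nucleus by insulin signalling, act on an overlapping set of genes, among them ubiquitin ligases that mark muscle proteins for the proteasome. Whole muscle also holds capillary endothelium, fibroblasts, fat cells and blood cells, which add their own RNA to the sample.

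Each gene was read from a probe set, a group of array probes summarised into 1 value. The deposited values are on a log2 scale and centred so that each probe set has a median of 0 over all arrays. A value therefore says how far an array lies above or below the others for that gene and gives no expression level, and values of different genes cannot be ranked as levels. Errors written after ± are standard errors (SE) of a model with n = 5 arrays per group, and adjusted p is that of limma over all 17831 probe sets, with a threshold of 0.01. The spread of the 4 h arrays (SD over probe sets) ran from 0.1304 in vehicle replicate 5 to 0.1941 in vehicle replicate 1. None of the 3 arrays of widest spread in the study is among them. Marker genes of muscle fibres (11 measured) had 0 past the threshold (2 at an unadjusted p under 0.05) and a median difference of 0.0149, and whether defining markers are present at all cannot be read from centred values. In whole tissue, fewer cells of a type and less RNA per cell cannot be told apart.

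At 4 h, muscle of IL-1b mice had more RNA from stress hormone targets, Mt1 and Mt2, Foxo1 and Foxo3 and the amino acid transporter gene Slc7a8. RNA of the receptor genes Osmr, Csf2rb and Il4ra was also higher. Less came from Kdr, Myct1, Aplnr and Eng, which mark endothelium, while the other 36 of 40 endothelial markers did not pass. Of the 17831 probe sets, 151 passed (0.847%), with 103 higher (0.578%) and 48 lower (0.269%) in IL-1b muscle. At least 1.75-fold differences, the size named in the study's design, were found in 42 of them (0.236%), with 36 higher (0.202%) and 6 lower (0.0336%). Over all probe sets the median difference was 0.00331. The IL-1b and vehicle arrays did not overlap in 140 of the 151, while 624 of all probe sets (3.5%) had groups that did not overlap, 330 higher (1.85%) and 294 lower (1.65%). At an unadjusted p under 0.05 there were 1565 (8.78%). The counts given below for gene lists are to be set against these shares.

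**Figure D1:**
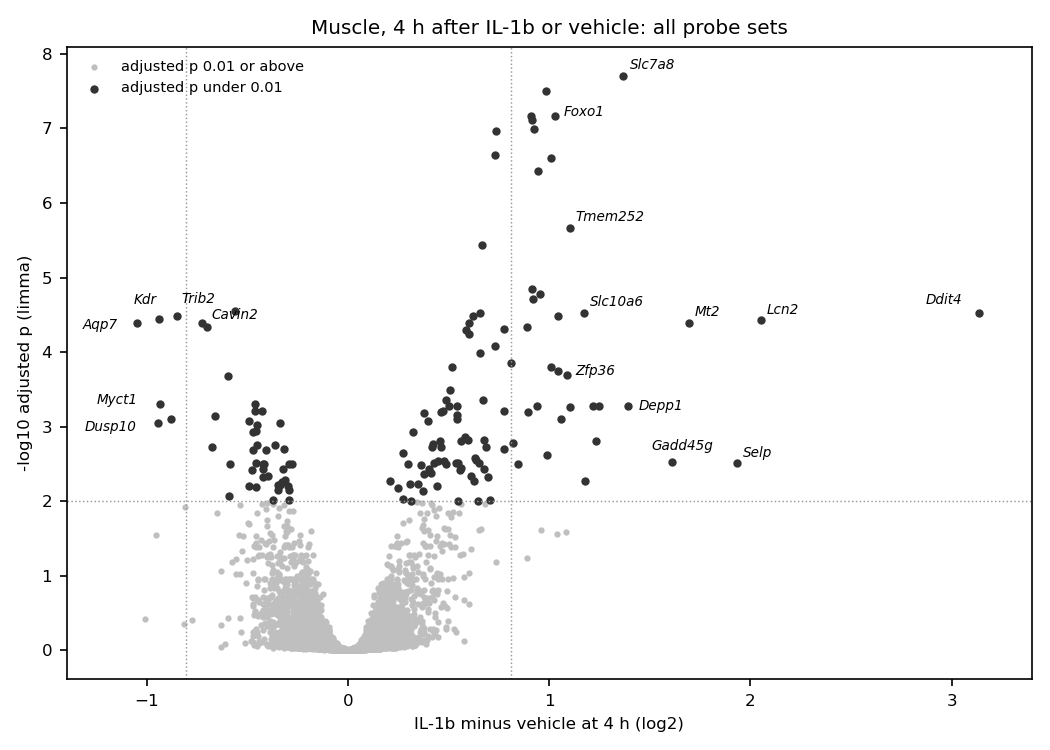
Difference between IL-1b and vehicle at 4 h (log2, horizontal) against the negative log10 of limma's adjusted p (vertical) for 17831 probe sets, 1 point each. Dotted lines mark an adjusted p of 0.01 and a 1.75-fold difference. Ddit4 lies farthest to the right at 3.14 and Slc7a8 highest, with an adjusted p of 1.96e-08.

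Vehicle replicate 5 stood apart from the other vehicle arrays. Among the vehicle arrays it lay nearest to the IL-1b arrays in 57 of the 103 probe sets that rose and in 32 of the 48 that fell. The mean centred value over the 103 ran from 0.49 to 0.709 in the IL-1b arrays, was 0.0695 in vehicle replicate 5 and lay between -0.287 and -0.166 in the remaining vehicle arrays. Without it 166 probe sets passed, 107 higher and 59 lower, and 141 of the 151 were among them. Among the IL-1b arrays, replicate 15 lay nearest to vehicle in 48 of the 103 that rose. In a principal component analysis of the 10 arrays the first component (38.5% of the variance) did not separate the treatments. On the second (18.1%) all 5 IL-1b arrays were positive and all 5 vehicle arrays negative.

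Outside the 4 h groups, IL-1b replicate 2 at 2 h lay apart from the other IL-1b arrays of that time. Selp was at -0.29 in it, against 2.87 to 3.01 in the other 4 and -0.47 to -0.23 in the vehicle arrays at 2 h, and Vcam1, Icam1 and Lcn2 likewise lay at -0.04, 0.19 and -0.07, against at least 1.79, 2.29 and 1.46 in the other 4. It enters the 4 h results through the model's spread, which all groups share. In a fit without it, chosen after its values were seen, 158 probe sets passed at 4 h (111 higher, 47 lower), with 147 of the 151 among them. The calls of Cd93 and Cdkn1a then ended (adjusted p = 0.0107 and 0.0101), and of the other named genes Vcam1 and Ackr1 passed in addition.

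Genes known as targets of the glucocorticoid receptor were the most often changed of the lists examined. Of 28 measured, 9 rose (32.1%, against 0.578% of all probe sets), 0 fell and 19 did not pass. The median difference was 0.493. At an unadjusted p under 0.05, 19 were higher and 0 lower, against 8.78% of all probe sets in either direction. Besides Ddit4 (3.14), the 9 were Mt2 (1.69), Mt1 (1.25), Fkbp5 (1.11), Zfp36 (1.09), Per1 (1.01), Cdkn1a (0.65), Errfi1 (0.62) and Sgk1 (0.54). Arrdc2, of the arrestin family, differed by 1.08 with overlapping groups and did not pass (adjusted p = 0.0258), and Glul and Nfkbia differed by 0.58 and 0.65 without passing (adjusted p = 0.103 and 0.024). Without vehicle replicate 5, Nfkbia rose by 0.82 (adjusted p = 0.00036). Nr3c1, which encodes the receptor itself, differed by -0.16 (adjusted p = 0.765). The mean of the list per array was 0.377 to 0.552 in IL-1b arrays and -0.351 to 0.161 in vehicle arrays, the highest vehicle value being that of replicate 5. With that array left out, 12 members rose. Leaving out any other of the 10 arrays gave 6 to 8, and 6 rose without vehicle replicate 1 or 17 or IL-1b replicate 13 or 22.

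Ddit4 encodes a brake on mTORC1, the kinase complex that promotes protein synthesis. Its centred values were 2.08, 2.31, 2.07, 2.69 and 2.37 in IL-1b arrays (replicates 4, 13, 15, 18 and 22), and -1.27, -1.52, 1.24, -1.17 and -1.46 in vehicle arrays (replicates 1, 3, 5, 7 and 17). All IL-1b arrays were above all vehicle arrays, and vehicle replicate 5 lay between the groups. The difference of 3.14 ± 0.40 is 8.81-fold (adjusted p = 2.95e-05), and no array or other setting ended the call. Of 38 measured genes of insulin and mTORC1 signalling, Ddit4 was the 1 that passed, and the median of that list was 0.0244. Its relative Ddit4l, also a brake on mTORC1, differed by -0.45 and the Sestrin gene Sesn1 by 0.49 (adjusted p = 0.16 for Sesn1), while Irs1 differed by -0.42, Igf1 by -0.20 and Mtor by 0.10, none past the threshold.

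Fkbp5, a co-chaperone that lowers the affinity of the glucocorticoid receptor for its hormone, had values of 0.58, 1.03, 0.93, 0.80 and 0.93 in IL-1b arrays and -0.25, -0.04, 0.00, -0.25 and -0.70 in vehicle arrays. The groups did not overlap, and the rise was 1.11 ± 0.18 (2.15-fold, adjusted p = 0.00055). Per1, a repressor of the circadian clock that is also induced by glucocorticoids, was at 0.62, 0.60, 0.83, 0.68 and 0.62 in IL-1b arrays and at -0.41, -0.27, 0.11, -0.17 and -0.95 in vehicle arrays, with a difference of 1.01 ± 0.15 (adjusted p = 0.000157). It was the 1 of 18 clock genes to pass. Nfil3 differed by 0.55 and Bhlhe40 and Arntl by -0.44 and -0.41, and Clock (-0.11), Cry1 (-0.06), Per3 (0.07) and Dbp (0.14) lay close to 0.

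Zfp36 encodes tristetraprolin, which speeds the decay of cytokine mRNAs. It was at 1.03, 0.94, 0.76, 1.39 and 0.94 in IL-1b arrays and at -0.34, -0.08, 0.67, -0.28 and -0.35 in vehicle arrays, again with replicate 5 highest in vehicle, and rose by 1.09 ± 0.16 (adjusted p = 0.0002). Fitted to the 4 h groups alone it did not pass. Fosl2, a subunit of AP-1, was the other of 29 immediate early genes that rose (0.59 ± 0.08, adjusted p = 5e-05). It differed by 0.07 between IL-1b arrays at 4 h and 2 h (adjusted p = 0.805) and by -0.46 between vehicle arrays at 4 h and 2 h (adjusted p = 0.00569). Fos (0.10), Egr1 (-0.01) and Myc (0.09) did not pass, and Nr4a1 (0.68), Btg2 (0.61) and Jun (0.37) had groups that did not overlap and did not pass either. Without vehicle replicate 5, 4 members of this list rose.

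Metallothioneins, small cysteine-rich proteins that bind zinc and copper, rose with a zinc importer. Mt2 was at 0.85, 0.83, 0.73, 1.73 and 1.21 in IL-1b arrays and at -0.27, -0.50, -0.22, -1.07 and -1.05 in vehicle arrays, with a difference of 1.69 ± 0.23 (3.23-fold, adjusted p = 4.03e-05). Mt1, its neighbour on chromosome 8, was at 0.30, 0.58, 0.52, 1.11 and 1.06 in IL-1b arrays and at -0.42, -0.57, -0.09, -0.74 and -0.86 in vehicle arrays, with a difference of 1.25 ± 0.20 (adjusted p = 0.000524). Both genes were higher in every IL-1b array than in any vehicle array. The 2 genes are alike in sequence, so their probe sets may share some signal. Slc39a14, which brings zinc into cells, was at 0.30 to 0.59 in IL-1b arrays and at -0.36 to -0.12 in vehicle arrays, and rose by 0.66 ± 0.08 (adjusted p = 2.95e-05). The other 17 of the 20 metallothionein and zinc genes did not pass, Mt3 and Mt4 at 0.14 each, the zinc exporter Slc30a1 at 0.06 and the metal-sensing factor Mtf1 at 0.10.

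The bases just before the start of these genes were set beside those of the other genes that rose, to show which known motif letters lie there. The 250 bases before each annotated start of a gene were read from RefSeq (build GRCm38.p6). A gene with several starts was counted if any of them had a match. Of the 29 genes named here that rose at least 1.75-fold, 26 had an entry, as did 75 of all 90 named genes that rose and 33 of 46 that fell, among 27025 genes in all. The palindrome that the glucocorticoid receptor recognises, GNACA and TGTNC set apart by any 3 bases, was present in 4 of the 26 (Fam107a, Map3k6, Mt1 and Slc10a6), in 5 of the 75 (those and Sgk1) and in 0 of the 33, against 0.44% of all genes. The metal response letters TGCACNC were in 5 of the 26 and in 11.8% of all genes, and TGCGCNC in 6 of the 26 and in 14% of all genes. In all, 19 motifs were searched on both strands, and the promoters printed were picked after their matches were seen. Among the others, the FoxO letters GTAAACA were in 0 of the 26 (3.54% of all genes), an NF-kB motif (GGGAC followed at once by TTTCC) in 0 of the 26 (0.159%) and the STAT letters TTCNNNGAA in 3 of the 26 (8.13%). The cAMP response letters TGACGTCA were in Slc25a25 alone of the 26 (1.77% of all genes), and TGACGT, which lies within them, in 4 (7.29%). AP-1 letters TGANTCA were in 2 (7.82%), C/EBP letters TTGCNNAA in 5 (10.8%), the E-box CACGTG in 3 (6.86%), the stricter STAT letters TTCCNGGAA in 0 (1.09%), GGAAATG in 0 (7.16%), CACCC in 14 (54.5%) and the GC box GGGCGG in 13 (35.4%). A stricter glucocorticoid palindrome, contained in the first, was in 0 of the 26 and in 0.0111% of all genes, Sgk1 among them. A second and a loose NF-kB motif were in 0 and 20 (0.104% and 48.7%), and a serum response motif in 21 (69.3%). A match describes the letters and is not a bound site. Where a gene had several starts, the sequence printed is that with the most matches to the palindrome and the metal response letters. Capitals mark the metal response letters in Mt2 (chr8:94172368-94172617, plus strand), both those and the palindrome in Mt1 (chr8:94178839-94179088, plus strand) and Fam107a (chr14:8309780-8310029, minus strand), and the palindrome alone in Sgk1 (chr10:21993640-21993889, plus strand), Slc10a6 (chr5:103629404-103629653, minus strand) and Map3k6 (chr4:133240568-133240817, plus strand).
Mt2: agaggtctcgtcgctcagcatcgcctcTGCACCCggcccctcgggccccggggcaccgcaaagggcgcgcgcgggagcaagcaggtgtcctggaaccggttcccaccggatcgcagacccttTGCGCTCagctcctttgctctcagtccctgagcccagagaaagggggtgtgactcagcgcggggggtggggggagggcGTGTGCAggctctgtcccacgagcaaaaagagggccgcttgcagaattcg
Mt1: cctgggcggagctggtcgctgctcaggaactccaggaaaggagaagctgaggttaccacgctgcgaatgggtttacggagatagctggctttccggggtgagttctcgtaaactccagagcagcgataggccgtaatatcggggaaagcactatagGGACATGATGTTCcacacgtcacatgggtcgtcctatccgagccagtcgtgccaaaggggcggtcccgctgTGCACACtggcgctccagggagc
Sgk1: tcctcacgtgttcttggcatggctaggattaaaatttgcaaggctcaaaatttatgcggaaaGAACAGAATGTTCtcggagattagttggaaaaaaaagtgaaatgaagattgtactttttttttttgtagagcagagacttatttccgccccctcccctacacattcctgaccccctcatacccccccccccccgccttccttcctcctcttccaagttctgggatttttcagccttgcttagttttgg
Slc10a6: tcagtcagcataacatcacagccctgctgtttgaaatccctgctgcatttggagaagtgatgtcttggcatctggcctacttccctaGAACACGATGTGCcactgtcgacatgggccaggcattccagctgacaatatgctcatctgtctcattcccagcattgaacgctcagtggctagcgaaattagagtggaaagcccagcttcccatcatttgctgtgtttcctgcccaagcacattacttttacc
Fam107a: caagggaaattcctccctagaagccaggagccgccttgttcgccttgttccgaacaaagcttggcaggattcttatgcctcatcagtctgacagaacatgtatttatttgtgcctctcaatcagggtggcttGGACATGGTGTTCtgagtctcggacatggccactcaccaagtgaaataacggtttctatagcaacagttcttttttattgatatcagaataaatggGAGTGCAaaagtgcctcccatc
Map3k6: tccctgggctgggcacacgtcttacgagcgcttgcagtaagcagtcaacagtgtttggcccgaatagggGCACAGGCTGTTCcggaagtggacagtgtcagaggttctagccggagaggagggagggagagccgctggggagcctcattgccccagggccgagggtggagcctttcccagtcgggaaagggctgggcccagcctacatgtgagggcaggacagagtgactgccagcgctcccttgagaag

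In these sequences the palindrome begins 94 bases before the start in Mt1 and 188, 163, 118 and 181 bases before it in Sgk1, Slc10a6, Fam107a and Map3k6. Mt2 has 3 matches to the metal response letters in this window and none to the palindrome. Mt1 and Fam107a each hold 1 match to the metal response letters. It begins 23 bases before the start in Mt1 and, on the other strand, 22 bases before it in Fam107a. The windows depend on the annotated starts, and bases outside them were not searched. Numbers of matches therefore cannot be compared between these genes or set against their rises. Slc10a6, a transporter of sulphated steroids, was at 1.26, 1.26, 0.83, 1.22 and 1.24 in IL-1b arrays and at -0.29, -0.03, 0.67, 0.11 and -0.50 in vehicle arrays. It rose by 1.17 ± 0.15 (adjusted p = 2.95e-05). Fam107a, an actin-binding stress protein, rose by 0.94 ± 0.15 (adjusted p = 0.000524) and Map3k6, a kinase of the stress MAPK cascade, by 0.81 ± 0.12 (adjusted p = 0.000138). The kinase gene Sgk1 rose by 0.54 ± 0.10 (adjusted p = 0.00303), with groups that overlapped, and is named because of its palindrome. Fitted to the 4 h groups alone, Fam107a did not pass.

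Foxo1 and Foxo3 rose, while Foxo4 (0.09, adjusted p = 0.861), Foxo6 (0.05, adjusted p = 0.961) and the ubiquitin ligases of the same list did not pass. Of 22 FoxO and atrophy genes, Foxo1, Foxo3 and Depp1 rose, 0 fell, and the median of the list was 0.0693. Foxo1 was at 0.80, 0.91, 0.63, 1.13 and 0.93 in IL-1b arrays and at 0.10, -0.19, -0.04, -0.24 and -0.36 in vehicle arrays. The groups lay well apart, and the difference of 1.03 ± 0.09 is 2.04-fold (adjusted p = 6.72e-08). Depp1, known as a FoxO target that acts on autophagy, was at 0.71, 1.20, 0.59, 0.98 and 0.71 in IL-1b arrays and at -0.76, -0.49, 0.23, -0.68 and -1.06 in vehicle arrays (1.39 ± 0.22, adjusted p = 0.000524). Foxo3 rose by 0.48 ± 0.09 (adjusted p = 0.00292). Its adjusted p reached 0.0164 over the fits with 1 array left out and passed 0.01 without vehicle replicate 3 or 17 or IL-1b replicate 18.

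Fbxo32, which encodes the muscle ubiquitin ligase atrogin-1, was at -0.01, 0.13, 0.18, 0.14 and 0.06 in IL-1b arrays and at -0.27, 0.02, 0.10, -0.05 and 0.09 in vehicle arrays. These values overlap, with a difference of 0.12 ± 0.14 (adjusted p = 0.925). Other ligases of the list did not pass either, among them Fbxo30 (-0.19), Fbxo31 (0.18), Nedd4l (0.08), Traf6 (-0.02) and Stub1 (0.02). The best known partner of Fbxo32, Trim63, has no probe set with a single gene name and was not analysed here. None of 31 proteasome genes (median -0.0292) and none of 31 autophagy and lysosome genes (median -0.0105) passed by limma, with differences of -0.27 to 0.08 and -0.28 to 0.19, and at an unadjusted p under 0.05 there were 1 and 3. Mstn (myostatin, an inhibitor of muscle growth) differed by 0.16 (adjusted p = 0.898), and Acvr1b, a receptor kinase that carries its signal, rose by 0.59 ± 0.11 (adjusted p = 0.00152). Acvr1b was the 1 called among 36 BMP and TGF-beta genes.

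**Figure D2:**
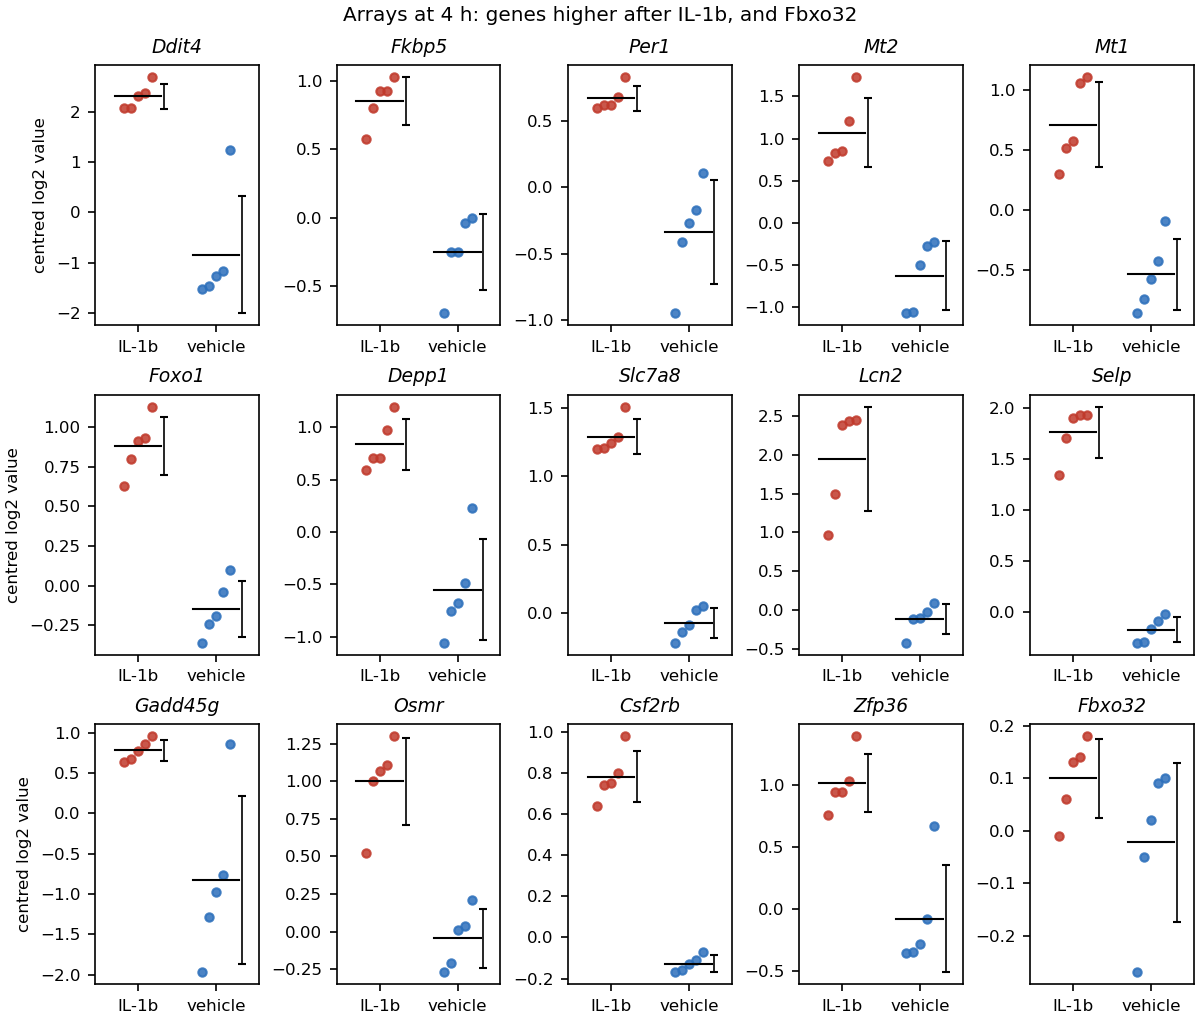
Centred log2 value (vertical) of each 4 h array for 14 genes that rose and for Fbxo32, which did not pass. Points are arrays, IL-1b (n = 5) left of vehicle (n = 5), black lines are group means and bars are SD. The groups overlap in Gadd45g and Fbxo32. The highest vehicle point is replicate 5 in Ddit4, Fkbp5, Per1, Mt2, Mt1, Depp1, Gadd45g, Zfp36 and Fbxo32.

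In the lists of amino acid genes, 1 transporter gene passed. The amino acid transporter gene Slc1a1 and the amino acid oxidase gene Lao1 lie outside those lists and also rose past the threshold. Slc7a8, a carrier that exchanges neutral amino acids across the cell membrane, was at 1.21, 1.24, 1.20, 1.51 and 1.29 in IL-1b arrays and at -0.22, 0.05, 0.02, -0.09 and -0.14 in vehicle arrays. No array came near the other group, and the difference of 1.37 ± 0.11 (2.58-fold) had the lowest adjusted p of the comparison, 1.96e-08. The other 27 of 28 amino acid transport genes did not pass, with a list median of -0.00862. Slc3a2, the heavy chain that carries Slc7a8 to the membrane, differed by 0.30, and the neutral amino acid transporter Slc43a1 by 0.44 (adjusted p = 0.0966), both with groups that did not overlap. Slc7a5, a second partner of Slc3a2, differed by 0.17. Among 33 amino acid metabolism genes 0 passed by limma (5 at an unadjusted p under 0.05), and the largest differences were those of glutamine synthetase, Glul (0.58), and proline dehydrogenase, Prodh (0.33, adjusted p = 0.0556). Fitted to the 4 h groups alone, 1 gene of that list rose, and 2 transport genes.

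Fuel genes showed single changes. Ppp1r3c, which brings a phosphatase to glycogen and favours glycogen synthesis, rose by 0.77 ± 0.14 (adjusted p = 0.00197) and was the 1 called among 31 glycogen and glucose genes. It did not pass without vehicle replicate 7 or 17 (adjusted p up to 0.0105). Plin4, a lipid droplet coat protein, rose by 0.61 ± 0.12 (adjusted p = 0.00462). Cpt1a, which admits long fatty acids to mitochondria, fell by 0.46 (SE 0.09, adjusted p = 0.00303), and 41 of the 43 fatty acid genes did not pass (median -0.076). Plin4 kept its call without 4 of the 10 arrays (vehicle 3 and 5, IL-1b 4 and 13) and Cpt1a without 7, losing it without vehicle replicate 17 or IL-1b replicate 13 or 22, with adjusted p up to 0.0213 for Plin4 and 0.018 for Cpt1a. Cpt1a was higher at 4 h than at 2 h both in IL-1b arrays (0.44) and in vehicle arrays (0.53, adjusted p = 0.00369). Pdk4, a brake on glucose oxidation that glucocorticoids and FoxO1 induce, differed by 0.05. None of 38 respiratory chain genes passed by limma (median -0.0578, 3 at an unadjusted p under 0.05). Slc25a25, a mitochondrial carrier of ATP and magnesium, was at 0.13, 0.56, 0.37, 0.49 and 0.55 in IL-1b arrays and at -1.12, -0.74, -0.00, -0.91 and -1.20 in vehicle arrays, rising by 1.22 ± 0.20 (adjusted p = 0.000524). A trended and robust spread estimate ended that call. Slc25a25 differed by 0.10 between IL-1b arrays at 4 h and 2 h (adjusted p = 0.888). Between vehicle arrays at those times it differed by -0.92 (adjusted p = 0.026).

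Of 16 cell cycle genes, D-type cyclins as well as brakes, 3 rose (18.8%, against 0.578% of all probe sets) and 0 fell. The list median was 0.0204, with 8 above 0. There were 4 higher and 3 lower at an unadjusted p under 0.05. Gadd45g, a stress-induced growth arrest protein, was at 0.67, 0.96, 0.64, 0.78 and 0.86 in IL-1b arrays and at -1.28, -0.97, 0.86, -0.76 and -1.97 in vehicle arrays. Vehicle replicate 5 lies inside the IL-1b range, and the difference was 1.61 ± 0.31 (adjusted p = 0.00302). Without that array the adjusted p was 1.14e-06. Gadd45g did not pass without vehicle replicate 1, 3 or 17 or IL-1b replicate 13 or 22 (adjusted p up to 0.014). Gadd45g differed by 0.16 between IL-1b arrays at 4 h and 2 h (adjusted p = 0.884) and by -0.84 between vehicle arrays (adjusted p = 0.305). Trp53inp1, a p53 target, rose by 0.78 ± 0.11 (adjusted p = 4.85e-05) with a range of 0.57 to 0.79 in IL-1b arrays and of -0.40 to 0.23 in vehicle arrays. Cdkn1a, the cyclin-dependent kinase inhibitor p21, passed narrowly (0.65 ± 0.14, adjusted p = 0.00989), and only vehicle replicates 3 and 5 could be left out without ending its call (adjusted p up to 0.0541).

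Osmr, Csf2rb and Il4ra, which encode chains of cytokine receptors, rose at 4 h. Osmr, a signalling subunit of the oncostatin M and IL-31 receptors, was at 1.00, 1.30, 0.52, 1.07 and 1.11 in IL-1b arrays and at -0.27, 0.21, 0.01, 0.04 and -0.21 in vehicle arrays (1.05 ± 0.16, adjusted p = 0.000177). Csf2rb, the shared chain of the receptors for IL-3, IL-5 and GM-CSF, was at 0.75, 0.74, 0.64, 0.98 and 0.80 in IL-1b arrays and at -0.07, -0.16, -0.11, -0.17 and -0.13 in vehicle arrays (0.91 ± 0.08, adjusted p = 6.72e-08). Neither gene had overlapping groups. Csf2rb has a near-identical copy in mice, Csf2rb2, whose RNA its probes may also catch. Il4ra, which binds IL-4 and IL-13, was at 0.59, 0.42, 0.45, 0.63 and 0.64 in IL-1b arrays and at -0.12, -0.18, 0.01, -0.29 and -0.01 in vehicle arrays (0.66 ± 0.07, adjusted p = 3.64e-06). With the kinase gene Pim3 (0.58 ± 0.10, adjusted p = 0.00138), Osmr and Il4ra were the 3 of 28 gp130 and STAT genes that rose, and the list median was 0.00473. Of the same list, the feedback inhibitor Socs3 differed by -0.09 and Cish by -0.63, Il6st (gp130) by 0.05, and Stat3 by 0.23 (adjusted p = 0.0397). Stat3 passed without IL-1b replicate 15 (0.29, adjusted p = 0.00443).

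None of 40 chemokine and cytokine genes passed by limma (median 0.0431, 7 at an unadjusted p under 0.05), although 2 rose in a fit to the 4 h groups alone. Without IL-1b replicate 2 of 2 h 1 passed, Ackr1, a receptor that binds chemokines without signalling, at 0.24 to 0.69 in IL-1b arrays and -0.12 to -0.02 in vehicle arrays (0.50 ± 0.09, adjusted p = 0.00254, against 0.112 with all arrays). Il1b itself differed by 0.11 (adjusted p = 0.826), Il6 by -0.03 and Tnf by -0.00. In the NF-kB list of 27, Irak3, which damps signalling from the IL-1 and Toll-like receptors, was the 1 that rose (0.51 ± 0.08, adjusted p = 0.000157), at 0.28 to 0.72 in IL-1b arrays and -0.09 to 0.12 in vehicle arrays. Nfkbia, the inhibitor that NF-kB itself induces, had vehicle values that reached 0.53 in replicate 5 and passed with that array left out. None of 29 interferon response genes passed by limma (median 0.0646, 6 at an unadjusted p under 0.05). Ifi205, an interferon-inducible gene outside that list with close copies in the genome, rose by 1.06 ± 0.18 (adjusted p = 0.000782). The EGF-family ligand gene Hbegf rose by 1.05 ± 0.14 (adjusted p = 3.27e-05), and Errfi1, which inhibits the receptor of that ligand, by 0.62 ± 0.13 (adjusted p = 0.00538). Errfi1 kept its call only without vehicle replicate 5 or IL-1b replicate 15, with an adjusted p up to 0.0249 without any other array.

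Lcn2 encodes lipocalin 2, a secreted protein that binds bacterial siderophores. It was at 1.50, 2.38, 0.97, 2.44 and 2.43 in IL-1b arrays and at -0.11, -0.02, -0.10, 0.09 and -0.42 in vehicle arrays. The lowest IL-1b array, replicate 15, still lay above all vehicle arrays, and the difference of 2.05 ± 0.27 is 4.15-fold (adjusted p = 3.71e-05). Of 20 acute phase genes it was the 1 that passed (list median 0.103), while Serpina3n had groups that did not overlap (0.48 to 1.66 in IL-1b arrays, -0.11 to 0.09 in vehicle arrays) and an adjusted p of 0.0244. Lcn2 is also 1 of the 15 neutrophil markers. The others did not pass, S100a8 and S100a9 differing by 0.09 and 0.14, Mmp8 by 0.40 and Retnlg by 0.45 (adjusted p = 0.421). The mean of the 15 neutrophil markers ran from 0.0964 to 0.335 in IL-1b arrays and from -0.149 to 0.0803 in vehicle arrays. Lcn2 itself is included in that mean, and the part of neutrophil RNA in the Lcn2 rise was not tested. Ms4a6d, a membrane protein gene of macrophages, rose by 0.99 ± 0.18 (adjusted p = 0.00238), at 1.20, 0.53, 0.31, 1.47 and 1.30 in IL-1b arrays and at 0.06, -0.07, 0.03, -0.19 and 0.02 in vehicle arrays. It did not pass without IL-1b replicate 18 or 22 (adjusted p up to 0.012). Of 18 macrophage markers 0 passed by limma (median 0.0177, 4 at an unadjusted p under 0.05), with the integrin gene Itgam nearest (0.37, adjusted p = 0.0105). Itgam passed without IL-1b replicate 13 or 15, and also with a further quantile normalization, with array medians subtracted or with array weights.

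**Figure D3:**
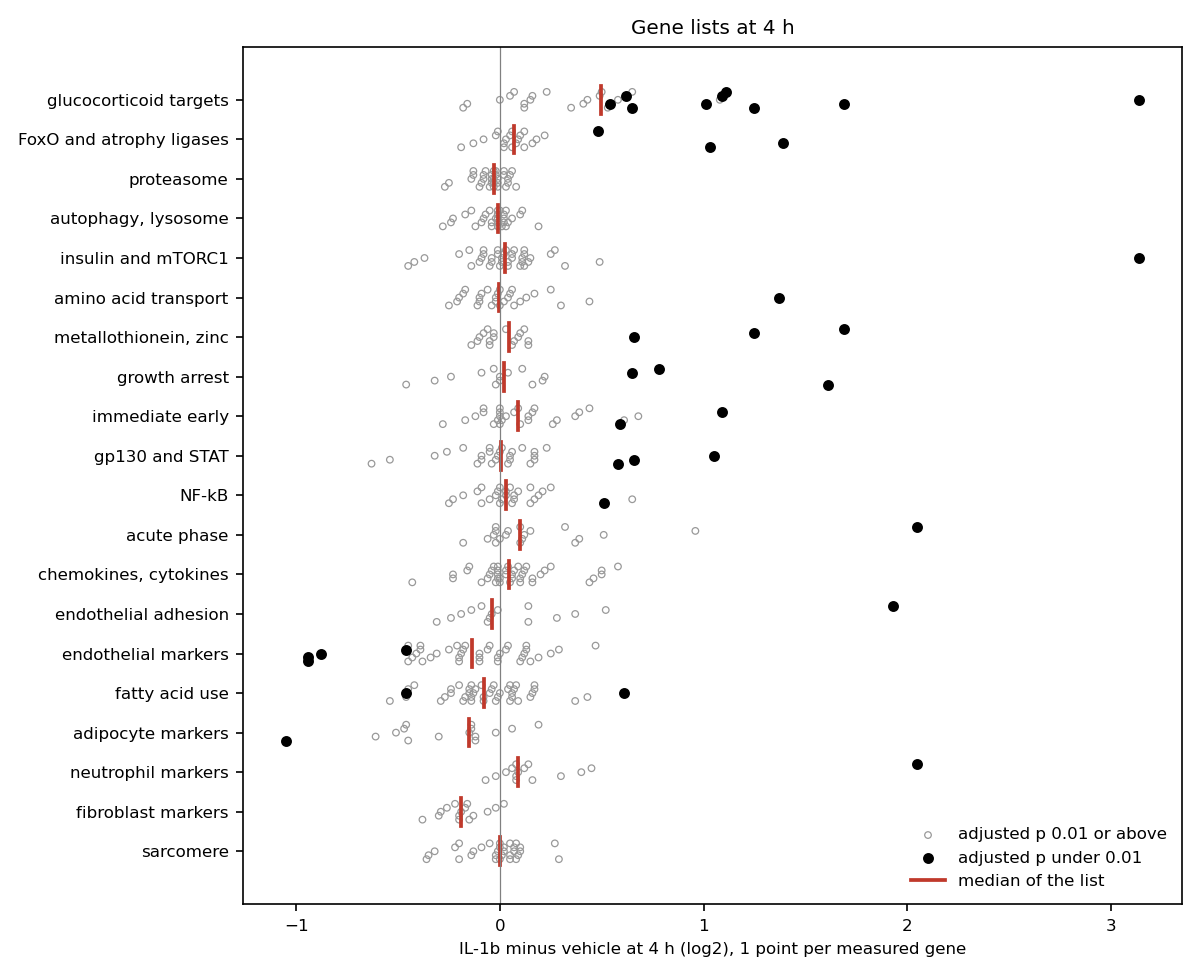
Difference between IL-1b and vehicle at 4 h (log2, horizontal) of each measured gene in 20 of the gene lists, 1 point per gene. Filled points have an adjusted p under 0.01 and red bars are list medians. Glucocorticoid targets have the median farthest to the right (0.493) and 9 filled points, and the filled points of endothelial markers all lie to the left.

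Vessel wall genes moved in both directions. Selp, which encodes P-selectin and captures leukocytes on activated endothelium, was at 1.71, 1.93, 1.34, 1.93 and 1.90 in IL-1b arrays and at -0.29, -0.02, -0.30, -0.09 and -0.16 in vehicle arrays. The groups were far apart, with a difference of 1.93 ± 0.37 (3.82-fold, adjusted p = 0.00305). IL-1b replicate 2 of 2 h widened this SE, which was 0.09 without that array (adjusted p = 1.33e-13). With that array kept, the call ended without vehicle replicate 1 or 17 or IL-1b replicate 13, 18 or 22, with adjusted p up to 0.0107. Selp was the 1 of 15 endothelial adhesion genes that rose with all arrays. Vcam1, an adhesion molecule for leukocytes, was at 0.24 to 0.66 in IL-1b arrays and -0.29 to 0.08 in vehicle arrays, without overlap. Its difference of 0.52 had an adjusted p of 0.511 with all arrays and of 0.0075 without IL-1b replicate 2 of 2 h. Icam1, a second such molecule, had overlapping groups (0.28) and did not pass either way (adjusted p = 0.898, and 0.145 without that array).

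Of 40 endothelial markers, 4 fell (10%, against 0.269% of all probe sets), 0 rose and 36 did not pass, with a median of -0.134. At an unadjusted p under 0.05, 18 were lower and 4 higher, against 8.78% of all probe sets in either direction. Kdr, the main receptor for VEGF on endothelial cells, was at -0.66, -0.84, -0.85, -0.71 and -1.11 in IL-1b arrays and at -0.10, 0.24, -0.27, 0.13 and 0.51 in vehicle arrays. It fell by 0.94 on the log2 scale (SE 0.12, 1.92-fold, adjusted p = 3.59e-05). Myct1, an endothelial gene, was at -0.79, -0.86, -0.50, -0.93 and -0.81 in IL-1b arrays and at 0.09, 0.37, -0.35, 0.41 and 0.27 in vehicle arrays, and fell by 0.94 (SE 0.15, adjusted p = 0.000497). Aplnr, the apelin receptor, was at -0.53, -0.66, -0.82, -0.49 and -0.74 in IL-1b arrays and at 0.40, 0.20, -0.32, 0.20 and 0.68 in vehicle arrays, and fell by 0.88 (SE 0.15, adjusted p = 0.000782). In these 3 genes the groups did not overlap and vehicle replicate 5 was the lowest vehicle array. Eng, a TGF-beta co-receptor of endothelium, fell by 0.46 (SE 0.08, adjusted p = 0.000622).

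Widely used endothelial markers did not pass, with Pecam1 at -0.06, Cdh5 at -0.20, Vwf at -0.01, Tie1 at -0.01 and Flt1 at 0.13. The mean of the 40 markers was -0.238 to -0.0459 in IL-1b arrays and -0.0587 to 0.131 in vehicle arrays. Kdr, Myct1, Aplnr and Eng are included in that mean, and the part of endothelial RNA in their falls was not tested. Without vehicle replicate 5, 7 markers fell, and the fits without any other array gave 4. Of 18 VEGF, angiopoietin and hypoxia genes 0 passed by limma (median -0.0463, 4 at an unadjusted p under 0.05). Further falls included Cavin2 (-0.72 ± 0.10, adjusted p = 4.03e-05), a coat protein of caveolae, and F3 (-0.70 ± 0.09, adjusted p = 4.65e-05), tissue factor, which starts coagulation. Efna1, an ephrin ligand, was at -0.54 to -0.43 in IL-1b arrays and -0.22 to 0.32 in vehicle arrays (-0.60 ± 0.09, adjusted p = 0.000207). Cd93, a receptor of endothelial and myeloid cells, fell by 0.59 (SE 0.13, adjusted p = 0.00858), and leaving out any array other than vehicle replicate 5 or IL-1b replicate 18 ended its call (adjusted p up to 0.0443).

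The largest fall was that of Aqp7, a channel for water and glycerol known from fat cells and capillary endothelium. It was at -0.41, -0.69, -0.59, -0.43 and -0.95 in IL-1b arrays and at 0.37, 0.48, 0.22, 0.46 and 0.65 in vehicle arrays. Groups were well apart, and it fell by 1.05 on the log2 scale (SE 0.14, 2.07-fold, adjusted p = 4.03e-05). Of 15 adipocyte markers it was the 1 that passed (list median -0.154), and 13 of the 15 had differences below 0. Adipoq, the hormone of fat cells, differed by -0.61 with a wide spread (-0.86 to 0.63 in IL-1b arrays, -0.20 to 1.10 in vehicle arrays, adjusted p = 0.811), and Plin1 by -0.30. The mean of the 15 was -0.288 to 0.241 in IL-1b arrays and -0.0255 to 0.495 in vehicle arrays. Aqp7 itself is included in that mean, and the part of fat cell RNA in its fall was not tested. Fibroblast markers (15 measured, median -0.185, 1 above 0) had 0 past the threshold and 1 at an unadjusted p under 0.05, with list means of -0.499 to 0.11 in IL-1b arrays and -0.1 to 0.16 in vehicle arrays.

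Among kinase regulators, Dusp10, a phosphatase that switches off the p38 and JNK kinases, was at -1.39, -0.83, -0.86, -1.15 and -1.28 in IL-1b arrays and at -0.27, -0.12, -0.74, -0.06 and 0.41 in vehicle arrays (-0.95 ± 0.16, adjusted p = 0.000895). Its call ended with a further quantile normalization and in a fit to the 4 h groups alone. Trib2, a pseudokinase that steers ubiquitination, was at -0.73, -0.80, -0.95, -0.61 and -0.98 in IL-1b arrays and at -0.16, 0.04, -0.31, 0.12 and 0.48 in vehicle arrays (-0.85 ± 0.11, adjusted p = 3.27e-05). With Dusp18 (-0.46) and the rise of Errfi1, Dusp10 makes 3 of 19 MAPK brakes that passed. Dusp18 kept its call only without vehicle replicate 5 or IL-1b replicate 13 (adjusted p up to 0.0379). Adamts1, a matrix protease, fell by 0.66 (SE 0.11, adjusted p = 0.000723) as the 1 of 36 matrix genes, and its call ended with a further quantile normalization. Other falls were Car8 (-0.68 ± 0.12), Klf10 (-0.59 ± 0.11) and Angptl1 (-0.49 ± 0.10), with adjusted p from 0.0019 to 0.00625. Klf10 did not pass without vehicle replicate 3 or 17 or IL-1b replicate 13 or 18 (adjusted p up to 0.0185), Car8 without vehicle replicate 17 (adjusted p = 0.0103), and Angptl1 passed only without vehicle replicate 5 or IL-1b replicate 18 (adjusted p up to 0.0269).

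**Figure D4:**
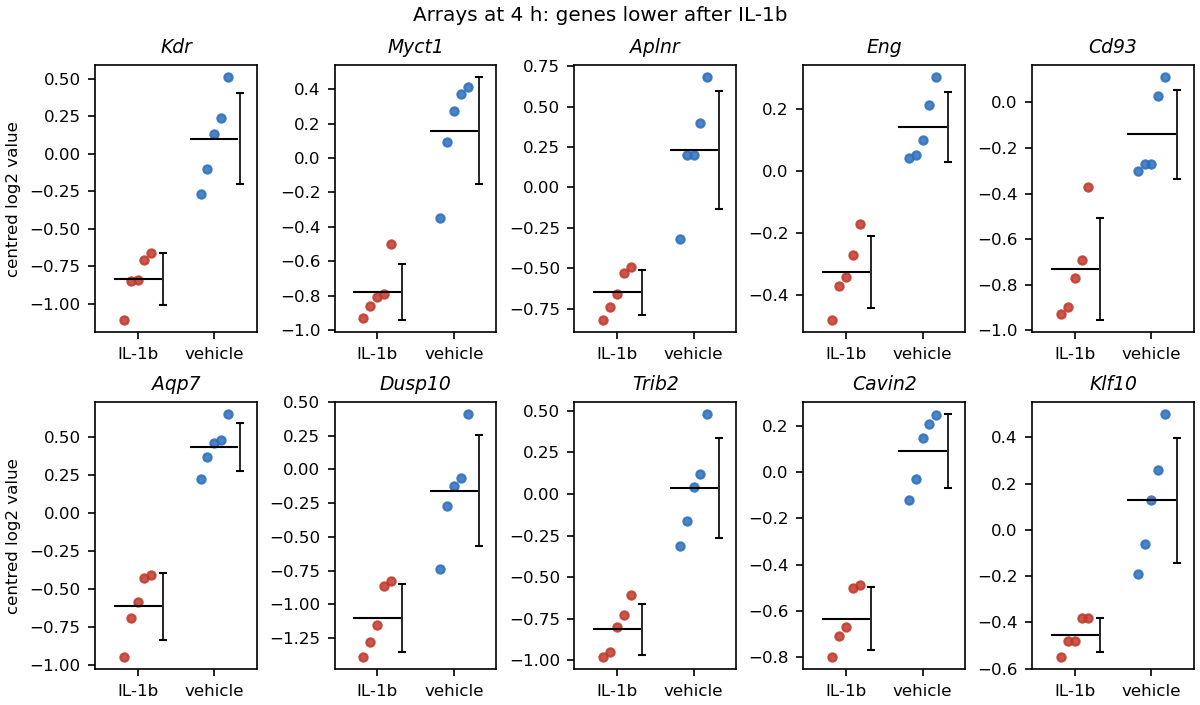
Centred log2 value (vertical) of each 4 h array for 10 genes that fell. Points are arrays, IL-1b (n = 5) left of vehicle (n = 5), black lines are group means and bars are SD. In all 10 genes every IL-1b point lies below every vehicle point.

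Other large rises were of mixed function. Acer2, a ceramidase of the Golgi, was at 0.81, 1.06, 0.95, 1.03 and 0.84 in IL-1b arrays and at -0.16, -0.12, 0.11, 0.07 and -0.26 in vehicle arrays (1.01 ± 0.10, adjusted p = 2.47e-07), while its second probe set differed by 0.15 and did not pass. Usp54, of the ubiquitin peptidase family, was at 0.96, 0.73, 0.86, 1.07 and 0.90 in IL-1b arrays and at -0.06, -0.05, 0.19, -0.07 and -0.06 in vehicle arrays (0.91 ± 0.08, adjusted p = 7.73e-08), and its second probe set gave 0.92. The transcription factor gene Tfcp2l1 (0.95 ± 0.12), the ubiquitin ligase Rnf144b (0.92 ± 0.11), the planar polarity gene Prickle3 (0.91 ± 0.11), the ADP-ribosyltransferase Tiparp (0.89 ± 0.12), Tmem252 (1.10 ± 0.12) and D17H6S56E-5 (0.94 ± 0.09) all had groups that did not overlap and adjusted p of at most 4.65e-05.

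Several programmes that stress or illness can engage showed no gene past the threshold by limma at 4 h. This held for 27 genes of ER stress and ATF4 (median -0.106, 4 above 0), 26 heat shock genes (median -0.0845), 34 genes of ribosome production (median 0.0325), 20 translation factors (median -0.0366), 31 sarcomere genes (median 0.0022) and 35 genes of muscle differentiation and denervation (median 0.0131), where 1 fell in a fit to the 4 h groups alone, with a further quantile normalization or with array weights. At an unadjusted p under 0.05 these lists had 6, 3, 2, 1, 3 and 6 members, and with array weights 1 ER stress gene passed as lower. Those 6 ER stress and ATF4 genes were all lower in IL-1b arrays, beside 8.78% of all probe sets at that p in either direction. The mean of that list was -0.0779 to -0.0514 in IL-1b arrays and 0.0148 to 0.124 in vehicle arrays, without overlap. Of the 42 lists, those of glucocorticoid targets, FoxO and atrophy, insulin and mTORC1, and immediate early genes had means that did not overlap either. The same held for cell cycle, endothelial adhesion, acute phase, metallothionein and zinc, and neutrophil genes. Myod1, a master regulator of muscle identity, was closest to the threshold among genes of muscle differentiation and denervation. It was at -0.70 to -0.38 in IL-1b arrays and -0.14 to 0.08 in vehicle arrays (adjusted p = 0.0397). Pfkfb3, an activator of glycolysis, differed by -0.95 with overlapping groups (adjusted p = 0.0282), and passed without vehicle replicate 1 (-1.12, adjusted p = 0.00781). Lymphocyte markers (14, median 0.0375), pericyte and smooth muscle markers (14, median -0.0572), Schwann cell markers (10, median -0.0402) and the 2 erythroid markers measured also had 0 past the threshold, with 0, 1, 0 and 0 members at an unadjusted p under 0.05. Of 26 genes of iron and oxidative stress (median -0.0543) 0 passed by limma and 4 had an unadjusted p under 0.05, while 1 rose in a fit to the 4 h groups alone, with a further quantile normalization and without the 3 arrays of widest spread.

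The same contrasts at 2 h and 8 h use other arrays. Probe sets that passed numbered 13 at 2 h (0.0729%), 10 higher (0.0561%) and 3 lower (0.0168%), and 373 at 8 h (2.09%), 182 higher (1.02%) and 191 lower (1.07%). The 2 h count depends on IL-1b replicate 2, without which 40 passed (32 higher, 8 lower), the 13 among them. Of the 103 that rose at 4 h, 90 had a difference above 0 at 2 h and 94 at 8 h, and 3 passed in that direction at 2 h (8 without that array) and 49 at 8 h. Their median difference was 0.165 at 2 h, 0.651 at 4 h and 0.424 at 8 h. Of the 48 that fell, 41 lay below 0 at 2 h and 42 at 8 h, 1 and 12 of them passing, with medians of -0.202 at 2 h, -0.455 at 4 h and -0.23 at 8 h. The probe sets were chosen on their 4 h values, so that the medians at 4 h cannot be set against those at other times as a test. Over all 17831 probe sets the difference at 4 h correlated with that at 2 h by r = 0.0499 (0.0038 without IL-1b replicate 2 of 2 h) and with that at 8 h by r = 0.415, as a description across genes that share each time's arrays.

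A test of the change in effect between times passed in few genes. The effect at 4 h was larger than at 2 h in 9 probe sets (0.0505%), all of which rose at 4 h, and smaller in 0. They are Slc7a8 (1.23 ± 0.15, adjusted p = 0.000236), Acer2 (0.86 ± 0.14), Foxo1 (0.79 ± 0.13), 2 probe sets of Usp54 (0.79 ± 0.12 for the first) and, named after their values were seen, Aff1 (0.60 ± 0.10), Lrig1 (0.66 ± 0.11) and Fam117b (0.57 ± 0.10), with 1 probe set that has no single gene name. In the order 2, 4 and 8 h, Slc7a8 differed by 0.13, 1.37 and 1.37, and Foxo1 by 0.23, 1.03 and 1.23. With a trended and robust spread estimate 0 probe sets passed this test, and Slc7a8, Acer2, Foxo1 and Usp54 had an adjusted p of 0.0988. Acer2 did not pass with a further quantile normalization (adjusted p = 0.0139), nor Foxo1 without the 3 arrays of widest spread (adjusted p = 0.0103). Without IL-1b replicate 2 of 2 h, 27 probe sets passed, the 9 among them, 16 with a higher effect at 4 h and 11 with a lower one. Selp (-1.35 ± 0.13, adjusted p = 6.6e-07), Vcam1 (-1.49 ± 0.16, adjusted p = 4.25e-06) and Icam1 (-2.22 ± 0.13, adjusted p = 3.5e-11) were then lower in effect at 4 h than at 2 h, and Csf2rb higher (0.52 ± 0.09, adjusted p = 0.00517).

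Between 4 h and 8 h the effect differed in 31 probe sets (0.174%), 14 with a higher effect at 8 h (0.0785%) and 17 with a lower one (0.0953%). The differences of Csf2rb were 0.30, 0.91 and -0.03 at the 3 times in order, and its effect at 8 h was lower than at 4 h (-0.94 ± 0.12, adjusted p = 0.000138), as was that of Tmem252 (-1.23 ± 0.18, adjusted p = 0.000901). Klf10, a TGF-beta-induced repressor, differed by -0.59 at 4 h and by 1.20 at 8 h (difference of effects 1.79 ± 0.17, adjusted p = 1.77e-06). Id3, an inhibitor of helix-loop-helix factors, differed by -0.46 at 4 h without passing and by 0.82 at 8 h (1.29 ± 0.18, adjusted p = 0.000375), and Adamts1 by -0.66 and 0.30 (0.96 ± 0.17, adjusted p = 0.00416). With a further quantile normalization the tests of Id3 and Adamts1 did not pass (adjusted p = 0.0309 and 0.696). With a trended and robust spread estimate Adamts1 did not pass (adjusted p = 0.0101). For Ddit4 (1.85, 3.14 and 1.50 at the 3 times) neither change of effect involving 4 h passed, with or without IL-1b replicate 2 of 2 h. The differences of Selp were 2.64, 1.93 and -0.28 with all arrays, and neither change passed. Without that array its 2 h difference was 3.28, and its effect at 8 h was lower than at 4 h (-2.21 ± 0.13, adjusted p = 1.11e-10). Fbxo32 differed by 0.12 at 4 h and 1.21 at 8 h, and this change had an adjusted p of 0.0129 with all arrays and 0.00977 without that array, when 41 probe sets passed, the 31 among them.

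**Figure D5:**
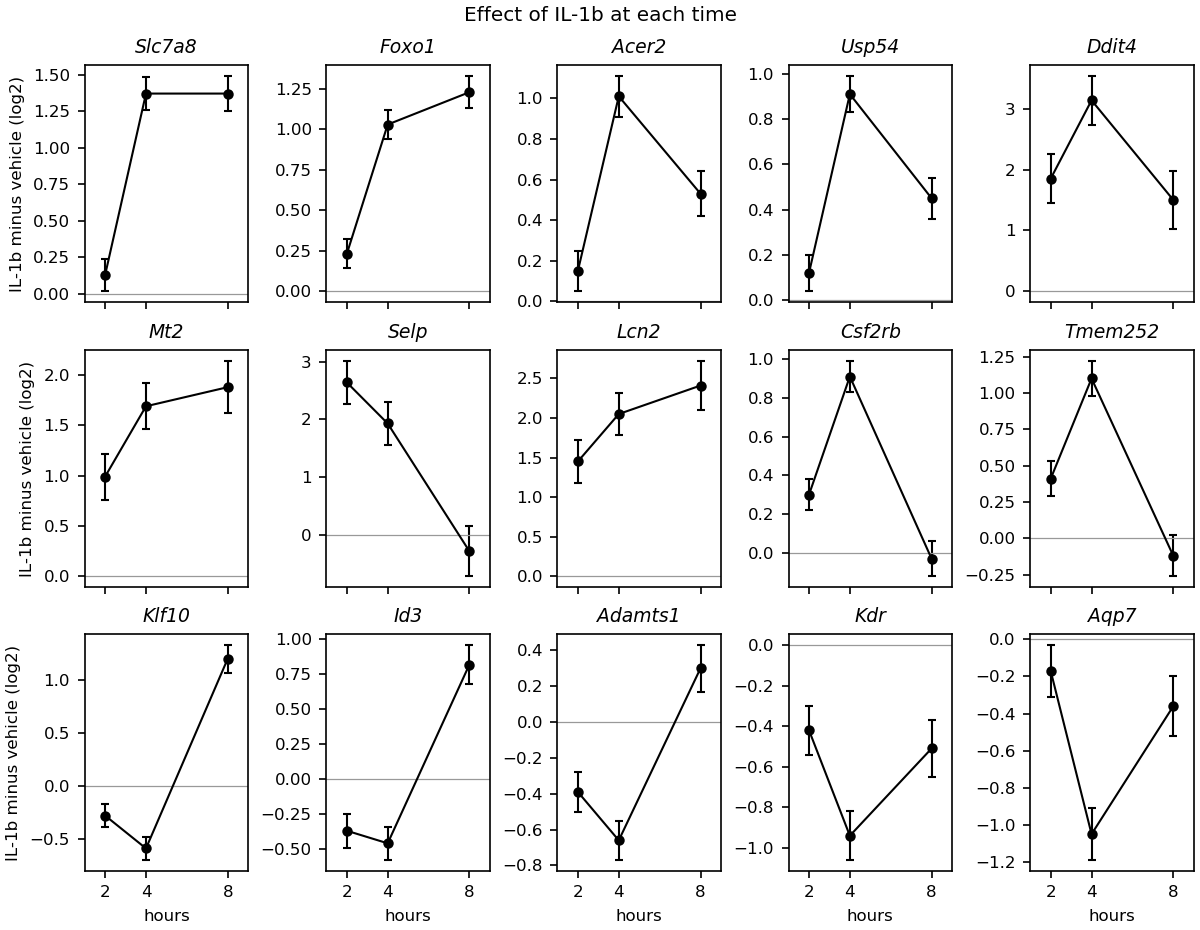
Difference between IL-1b and vehicle (log2, vertical) at 2, 4 and 8 h after injection (horizontal) for 15 genes, with SE of the model as bars. The vertical scale differs between panels. Slc7a8 and Foxo1 differ little at 2 h and by over 1 at 4 h and 8 h, Csf2rb and Tmem252 are back near 0 at 8 h, and Klf10 and Id3 change sign between 4 h and 8 h.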

How the data were processed

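Muscle RNA of 28 samples in 6 groups was measured on arrays. The authors deposited 1 table of log2 values per probe set, made with RMA and mapped to mm9 per the submitters' processing notes, and no versions are stated in the labels used here. The log base is not stated and was taken as log2, as RMA gives it. Each probe set's median over the 28 arrays is 0, so levels and background cannot be read. Of 17831 probe sets, 15620 carry 1 gene symbol, 1370 several and 841 none, from the platform annotation, and only those with 1 were named. A gene with several was represented by the lowest probe set number.

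All arrays were fitted with limma 3.58.1 (R 4.3.3), 1 mean per group, with eBayes and Benjamini-Hochberg adjustment over all probe sets. The threshold of 0.01 and the 1.75-fold size follow the study's design text, and limma stands in for its one-way test. All p-values printed are from limma. The 42 gene lists hold 1158 distinct genes, of which 983 were measured. Members and lists were chosen with earlier results of these data known, so lists are described by counts and medians without a test. Named genes are those past 1.75-fold, the 15 largest falls, up to 5 called members per list, the 2 largest differences in lists with fewer than 2 calls, and a panel of 20. Other names were chosen after their values were seen. The fit was tested on simulated data. The number of arrays limits the precision. Alternatives were the spread estimate, array weights, normalization, probe set filter, threshold, one-way test, replicate number as a block, each 4 h array left out and, added after seeing the data, IL-1b replicate 2 of 2 h left out.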

Additional observations from a re-analysis of the deposited data

Results flagged for a closer look

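A gap test on the 124 named genes in both 4 h groups singled out 1 array in 13 of 248 cases, and chance alone gives about 1 in 20. In IL-1b replicate 18, Angptl1 was at -0.09 (the other IL-1b arrays -0.48 to -0.38), Efna1 at -0.54 (-0.45 to -0.43), Slc7a8 at 1.51 (1.20 to 1.29), Chac1, an enzyme that degrades glutathione, at -0.71 (-0.07 to 0.10), and Pdia3, an ER chaperone, at -0.08 (-0.32 to -0.26). In IL-1b replicate 15, Slc10a6 was at 0.83 (1.22 to 1.26), in replicate 13 the translation factor gene Eif4e at 0.08 (-0.26 to -0.16), and in replicate 4 the granzyme gene Gzma at -0.15 (0.04 to 0.09). In vehicle replicate 5, Ddit4 was at 1.24 (the other vehicle arrays -1.52 to -1.17), Zfp36 at 0.67 (-0.35 to -0.08), Usp54 at 0.19 (-0.07 to -0.05) and Rnd3 at -0.17 (0.25 to 0.27). In vehicle replicate 3 the proteasome gene Psma2 was at 0.24 (-0.03 to 0.04).

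Named genes whose effect of IL-1b differed between times by limma were Slc7a8 (1.23), Acer2 (0.86), Foxo1 (0.79) and Usp54 (0.79) for 4 h minus 2 h. For 8 h minus 4 h they were Klf10 (1.79), Id3 (1.29), Adamts1 (0.96), Csf2rb (-0.94) and Tmem252 (-1.23).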

How the results depend on the processing

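Of the 151 probe sets called at 4 h (103 higher, 48 lower), a fit to the 4 h groups alone called 98 (21 lower, 82 of the 98 shared), and the count was 450 (231 higher, 219 lower) with array weights and 265 (160 higher, 105 lower) at a threshold of 0.05. The share of calls that were higher was 68.2%, against 78.6% with the 4 h groups alone and 51.3% with array weights. Without the 3 arrays of widest spread 209 were called, 79 of them lower. Leaving out each 4 h array gave 93 (vehicle replicate 17) to 166 (vehicle replicate 5), with 70 to 107 higher and 23 to 59 lower, and 33 to 48 at 1.75-fold or more. The one-way test of the design text left 44 of that size, 42 shared. With a trended and robust spread estimate the 2 h count of 13 was 7, the change from 2 h to 4 h was called in 0 in place of 9 and that from 4 h to 8 h in 16 in place of 31, and the 2 h count was 8 without the widest arrays. Without IL-1b replicate 2 of 2 h, chosen after seeing the data, the 2 h count was 40 and the change from 2 h to 4 h was called in 27. The other counts stayed within 1.5 times. Array weights were estimated gene by gene, chosen after the default did not converge. No paired analysis was possible because the 4 h groups share no replicate number. With the number as a replicate block over all arrays 154 were called, 148 shared, and the calls of Cd93 and Cdkn1a ended. Of 59 named genes that were called, 45 kept the call whichever 4 h array was left out, 38 also under the 9 other settings, and 0 changed sign. Calls ended for 15 in the 4 h groups alone, 10 with the trended and robust estimate, 5 with a further quantile normalization and 4 with array medians subtracted. The glucocorticoid targets that rose numbered 6 to 17 over all settings. The causes were not tested.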
